A study of Mus musculus with 59 samples.

Results

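The genes described here carry names of histone lysine methyltransferase and demethylase families, and they were chosen by symbol. The rule took every gene whose single symbol begins with Kdm, Kmt2, Setd, Setdb, Prdm, Suv39h, Ehmt, Nsd, Ezh or Smyd (with a number where the family is numbered) or is Ash1l or Dot1l. The rule left out the Kmt5 genes. It found 60 of the 18194 genes on the array, with 1 probe set per gene, the one with the highest mean signal. Ash1l and Suv39h1 were not among the 60, so no value below covers them. The rule reads names and not function, and 2 of the 60 lie outside the enzyme families altogether. They are Ezhip, whose product is an inhibitor of Polycomb repressive complex 2, and Prdm16os, an antisense RNA at the Prdm16 locus. The rest are not all histone lysine enzymes either: Prdm10 and Prdm15 are described below as transcription factors, and Setd3 as an actin histidine methyltransferase. The other 58 comprise 7 H3K4 methyltransferase genes, 5 H3K9 methyltransferase genes, 2 H3K27 methyltransferase genes, 5 H3K36 and H3K79 methyltransferase genes, 10 other Setd and Smyd genes, 11 Prdm genes, 6 H3K4 demethylase genes, 9 H3K9 and H3K36 demethylase genes and 3 H3K27 demethylase genes.

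RNA from mouse brain was measured on 59 Affymetrix Mouse 430 2.0 arrays. Pregnant C57BL/6 mice were dosed by mouth once daily (E12.5, E13.5 and E14.5, in embryonic days) with valproic acid (VPA) or its carboxamide valpromide (VPM), each at 300 mg/kg, or with 0.5% methylcellulose (MC), the vehicle. Every animal studied therefore came from a dosed dam, and the MC groups serve as controls. The embryonic groups were E14.5 telencephalon taken 3 h after the last dose, E18.5 forebrain and E18.5 hippocampus, each after VPA, VPM or MC (3 arrays per group). Male offspring aged 12 to 13 weeks gave hippocampus and cortex after VPA with a running wheel (VPA+RW), VPA alone, MC with a wheel (MC+RW) or MC alone (3 arrays per group), the wheel being present from weaning, and a separate set of male hippocampi was taken at postnatal day P84 after VPA or MC (4 arrays per group). The titles call the replicates biological, but the labels name neither litters nor pooling, so the p-values measure the spread between these samples.

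Lysine methylation of histones marks chromatin states: methyl groups on H3K4 sit at promoters and enhancers, those on H3K36 and H3K79 along transcribed genes, and those on H3K9 and H3K27 in silenced chromatin. SET-domain enzymes (and Dot1l, which has no SET domain) add the groups, and amine oxidases of the Kdm1 family or JmjC-domain enzymes remove them. In the developing forebrain, Ezh2 holds neural progenitors against early differentiation, and Prdm16 marks radial glia. VPA inhibits histone deacetylases, an activity that VPM is known to lack in cell assays.

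Values below are scaled signals, that is, the deposited intensity after each array was brought to the same trimmed mean, and log2 changes come from these signals. Signals of different genes come from different probes and are not compared with each other. A gene is said to have risen, fallen or changed where its adjusted p lay under 0.05 (limma, Benjamini-Hochberg adjustment over all genes tested). Correlations between arrays of the same group, on log2 signals, were 0.972 to 0.994, and 0 of 1711 array pairs were identical. All 5 matched telencephalon markers (Emx1, Emx2, Lhx2, Dlx1 and Dlx2) lay above the signal floor in every embryonic group, and the summed hippocampal markers were 6007 to 7763 in E18.5 hippocampus MC arrays, against 2689 to 3229 in E18.5 forebrain MC arrays. In all 6 groups of E18.5 arrays replicate 3 had the lowest trimmed mean as deposited (207 to 269.9, against 270.1 to 344 on replicates 1 and 2). A single E14.5 array, VPM replicate 3, stood apart by a choroid plexus transcript, Ttr, at 19331, against 103 or less on both other VPM arrays. These are bulk tissue samples, in which fewer cells of a type and less RNA per cell cannot be told apart.

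The labels give no sex for embryos, and 3 members lie on sex chromosomes. Xist split the 27 embryonic arrays into 12 with a high level (5993 or more) and 15 with a low one (75.99 or less). All 32 adult arrays lay between these levels, at 155 to 308, and far below the high one. Kdm5d, the Y-linked H3K4 demethylase gene, ran from 0.485 to 19.9 on the 12 high-Xist arrays and from 309 to 473 on the 15 low-Xist arrays. Its X-linked relative Kdm5c ranged from 819 to 1287 (median 1064) on the high-Xist arrays and from 680.4 to 1129 (median 881) on the low-Xist arrays. Kdm6a, the X-linked H3K27 demethylase gene, ranged from 628 to 836 (median 705) and from 472 to 659.9 (median 527) on the same arrays. The Kdm5d ranges did not overlap, whereas those of Kdm5c and Kdm6a did. These ranges pool ages, tissues and drugs. The lowest Kdm5c values of both classes, 680.4 and 819, came from E14.5 VPA arrays. High-Xist arrays numbered 2 of 3 in the E14.5 VPA group, 2 of 3 in VPM and 1 of 3 in MC, so the inferred sex makeup differed between the groups.

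The first comparison asks which of these genes had changed in the telencephalon 3 h after the last dose of VPA. Of the 60 genes, 51 passed the filter on low signals, and 24 of them changed after VPA: 6 rose and 18 fell (47.1% of those tested). Over all 11068 genes tested, 53.8% changed, 27% up and 26.8% down, so the share of changed members lay near that of the array as a whole. The median log2 change was -0.08 over the tested members and -0.003 over all genes tested.

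**Figure D1:**
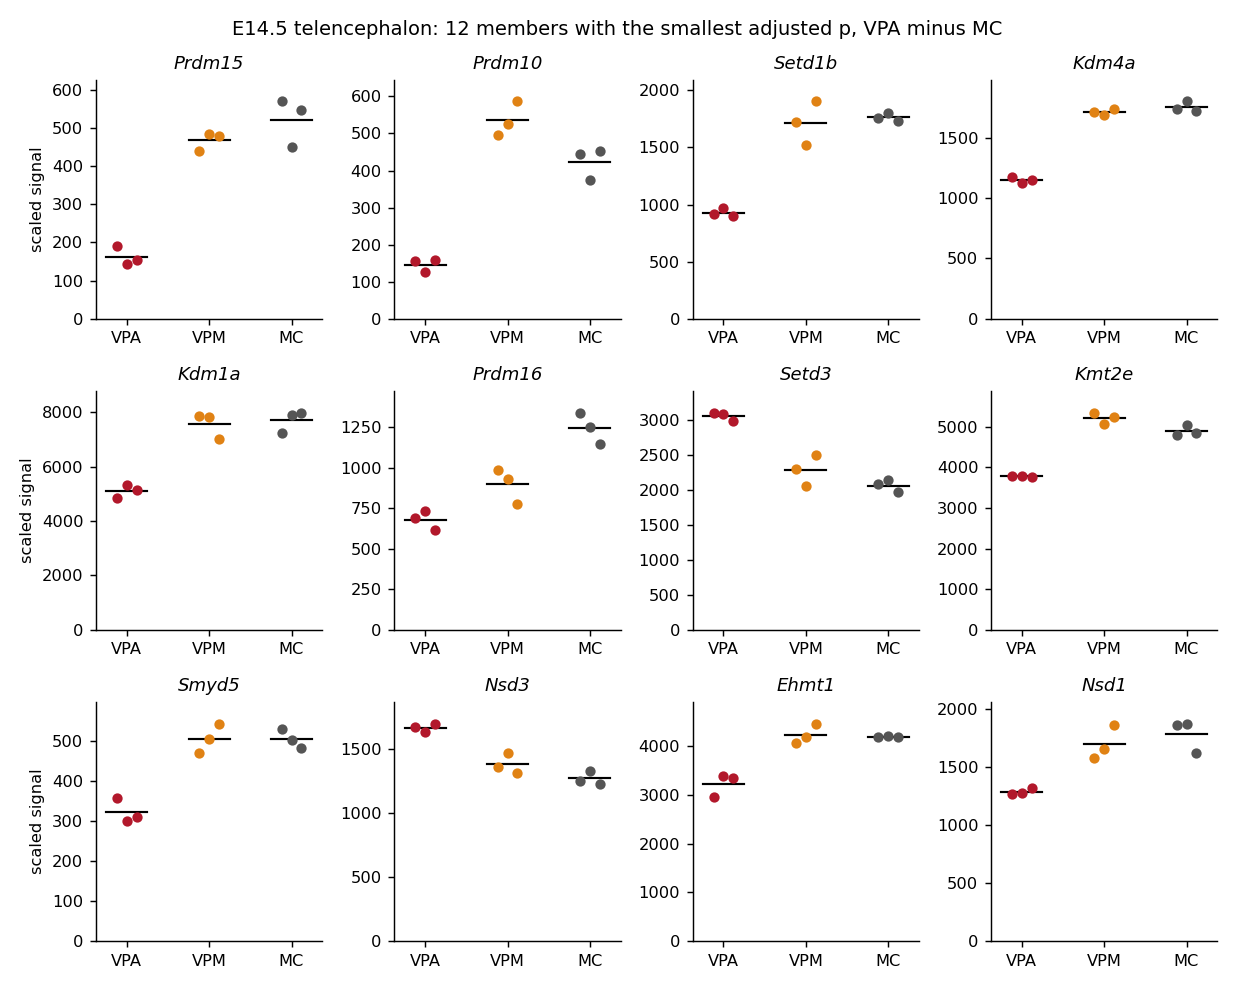
Scaled signal (y axis, linear from 0) of the 12 members with the smallest adjusted p for VPA minus MC at E14.5, with 1 point per array and a bar at the group mean, for VPA, VPM and MC telencephalon (3 arrays each). The VPA points lie apart from the MC points in all 12 panels, below them in 10 and above them for Setd3 and Nsd3.

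The Prdm genes, zinc-finger proteins with a PR domain related to SET, held the largest falls: 5 of the 6 tested fell and 0 rose. Prdm15, a transcription factor of early embryonic development, had signals of 191, 145 and 153 on the VPA arrays and 441, 486 and 481 on the VPM arrays, against 570.3, 449 and 547 on the MC arrays. All 3 VPA arrays lay below every VPM and MC array, and the log2 change against MC was -1.68 (95% interval -1.97 to -1.40, adjusted p = 1.37e-06). Prdm10 signals were 154, 125 and 158 after VPA and 497, 526 and 586 after VPM, against 445, 375 and 453 after MC. This gene, which encodes a sequence-specific transcription factor, was likewise lowest on every VPA array, with a log2 change of -1.55 (95% interval -1.82 to -1.27, adjusted p = 2.06e-06). Prdm16, the radial glia gene, read 692, 735 and 614 in the VPA group and 988, 934 and 777 in the VPM group, against 1341, 1250.3 and 1147 in the MC group. Here both drug groups lay below MC without overlap, and the log2 change of VPA against MC was -0.87 (95% interval -1.10 to -0.65, adjusted p = 2.81e-05). Prdm8, a repressor known from neuronal differentiation, fell by less, with a log2 change of -0.38 (adjusted p = 0.00409), and so did Prdm2, a gene for an H3K9 methyltransferase, at -0.43 (adjusted p = 0.00567). Prdm4 was the tested member of the family that did not pass, at 0.06 (adjusted p = 0.582).

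Among the H3K4 methyltransferase genes 2 of 7 fell and 0 rose. Setd1b, the catalytic subunit of a SET1/COMPASS complex, had signals of 917, 966 and 899 after VPA and 1727, 1523 and 1903 after VPM, against 1756, 1802 and 1731 after MC. Its VPA arrays all lay below the other 6, with a log2 change of -0.93 (95% interval -1.10 to -0.76, adjusted p = 2.77e-06). Kmt2e, an MLL-family protein whose own catalytic activity is doubtful, read 3793, 3789 and 3772 on the VPA arrays and 5348, 5067 and 5248 on the VPM arrays, against 4792, 5044 and 4852 on the MC arrays. The VPA values were again the lowest, and the log2 change was -0.37 (95% interval -0.48 to -0.27, adjusted p = 5.37e-05). The paralogue Setd1a did not pass (-0.05, adjusted p = 0.644), nor did Kmt2a (0.13, adjusted p = 0.315), Kmt2b (-0.08, adjusted p = 0.378), Kmt2c (-0.08, adjusted p = 0.419) or Kmt2d (0.16, adjusted p = 0.223).

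Of the 5 H3K9 methyltransferase genes 2 rose and 1 fell. Ehmt1 and Ehmt2 encode the partners of one heterodimeric enzyme (GLP and G9a), and their probe sets moved in opposite directions. Ehmt1 had signals of 2963, 3402 and 3347 after VPA and 4069, 4189.7 and 4467 after VPM, against 4201, 4206 and 4194 after MC. Every VPA value was below every MC value, a log2 change of -0.38 (95% interval -0.51 to -0.24, adjusted p = 3.32e-04). Ehmt2 read 5731, 6622 and 5714 on the VPA arrays, against 5165, 5319 and 5004 on the MC arrays, a log2 change of 0.22 (95% interval 0.07 to 0.37, adjusted p = 0.0203). Its groups did not overlap, but the call ended on the values as deposited (adjusted p = 0.0912), with no filter (0.0723), and without VPA replicate 2 (log2 change 0.15, adjusted p = 0.0794) or MC replicate 3 (0.20, adjusted p = 0.0716). Setdb2 rose (0.45, adjusted p = 0.00512), whereas Setdb1 (0.07, adjusted p = 0.355) and Suv39h2 (0.19, adjusted p = 0.135) did not pass.

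The alternative catalytic subunits of Polycomb repressive complex 2 gave 1 call between them. Ezh2, the subunit of dividing cells, had signals of 5872, 6576 and 6447 after VPA, against 6439, 6211 and 6817 after MC. These groups overlapped, and the log2 change was -0.04 (95% interval -0.18 to 0.09, adjusted p = 0.587). Ezh1, the subunit found mostly in non-dividing cells, read 289, 299 and 249.9 on the VPA arrays, against 196, 171 and 252 on the MC arrays. It passed at a log2 change of 0.45 (95% interval 0.12 to 0.78, adjusted p = 0.0239), although these groups overlapped. The Ezh1 call ended with no filter (adjusted p = 0.0754), with its second probe set (0.32, adjusted p = 0.103), and without VPA replicate 1 (0.43, adjusted p = 0.0657), VPA replicate 2 (0.40, adjusted p = 0.0769), MC replicate 1 (0.42, adjusted p = 0.0628) or MC replicate 2 (0.33, adjusted p = 0.0951).

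Among the H3K36 and H3K79 methyltransferase genes 1 rose and 1 fell of the 5 tested. Nsd3 signals were 1670.5, 1632 and 1698 after VPA and 1359.5, 1467 and 1315 after VPM, against 1252, 1329 and 1228 after MC. The VPA arrays of this H3K36 methyltransferase gene all lay above the MC arrays, a log2 change of 0.39 (95% interval 0.25 to 0.53, adjusted p = 3.03e-04). Its relative Nsd1 had 1268, 1270.4 and 1315 in the VPA group and 1579.8, 1653 and 1860.0 in the VPM group, against 1862, 1871 and 1619 in the MC group. Nsd1 thus went the other way, below MC on every VPA array, with a log2 change of -0.47 (95% interval -0.64 to -0.30, adjusted p = 3.45e-04). Nsd2 (-0.04, adjusted p = 0.658), Setd2, which writes H3K36 trimethylation (0.13, adjusted p = 0.0984), and Dot1l, the H3K79 methyltransferase gene (-0.06, adjusted p = 0.627), did not pass against MC.

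The other Setd and Smyd genes, several of which methylate proteins other than histones, gave 1 rise and 4 falls among 9 tested. Setd3, the actin histidine methyltransferase gene, had signals of 3102, 3087 and 2977 on the VPA arrays and 2295, 2053 and 2491 on the VPM arrays, against 2079, 2132 and 1966 on the MC arrays. The gene rose without overlap, with a log2 change of 0.57 (95% interval 0.41 to 0.73, adjusted p = 4.24e-05). Smyd5 read 357, 301 and 309.9 after VPA and 469, 504 and 543 after VPM, against 529, 502 and 483 after MC. It was lowest on the VPA arrays, with a log2 change of -0.65 (95% interval -0.86 to -0.43, adjusted p = 1.85e-04), while its second probe set gave -0.37 (adjusted p = 0.105). Falls were also seen in Smyd2, which methylates p53 and other proteins (-0.43, adjusted p = 5.32e-04), in Setd4 (-0.66, adjusted p = 6.04e-04) and in Setd7, an H3K4 monomethyltransferase gene (-0.30, adjusted p = 0.00562); Setd7 did not pass on the values as deposited (adjusted p = 0.0652).

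Of the 17 tested demethylase genes 1 rose and 5 fell, against 27% and 26.8% of all genes tested. Kdm1a (LSD1), the amine oxidase of the CoREST complex that removes H3K4 methyl groups, had signals of 4854, 5306 and 5120.3 after VPA and 7858, 7840.2 and 6998 after VPM, against 7235, 7879 and 7984 after MC. The VPA arrays formed a separate lower group, with a log2 change of -0.60 (95% interval -0.73 to -0.46, adjusted p = 1.24e-05). Its paralogue Kdm1b (LSD2) gave 1074, 819 and 1038 on the VPA arrays, against 598, 578 and 690.1 on the MC arrays, and so rose (0.65, adjusted p = 3.55e-04) where Kdm1a fell. Kdm5c, which removes H3K4 methyl groups, fell to 680.4, 841 and 819 after VPA, against 1246, 1101 and 1129 after MC. Its log2 change was -0.57 (adjusted p = 0.00101), and -0.66 (adjusted p = 6.39e-05) with the sex inferred from Xist as a covariate. Kdm5a (-0.24, adjusted p = 0.0901), Kdm5b (-0.16, adjusted p = 0.0735) and Kdm5d (-1.48, adjusted p = 0.324) did not pass.

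Kdm4a, which removes H3K9 and H3K36 trimethylation, had signals of 1175, 1127 and 1153 in the VPA group and 1713, 1686 and 1738 in the VPM group, against 1738, 1799 and 1722 in the MC group. It was lower on all VPA arrays than on any other, a log2 change of -0.61 (95% interval -0.73 to -0.49, adjusted p = 4.30e-06). Kdm8, a JmjC-domain gene, had 68.4, 46.7 and 63.3 on the VPA arrays, against 113, 137 and 149 on the MC arrays, and fell (-1.17, adjusted p = 3.59e-04). The remaining 6 of the 8 tested H3K9 and H3K36 demethylase genes did not pass. Of the 3 H3K27 demethylase genes, Kdm6b (JMJD3), which is induced in many cells by differentiation signals, read 2239, 2225 and 1452 after VPA, against 3336, 3336 and 3237 after MC. The groups did not overlap, and Kdm6b fell (-0.77, adjusted p = 0.00147). Kdm6a (0.11, adjusted p = 0.618) and Kdm7a (-0.05, adjusted p = 0.64) did not pass.

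**Figure D2:**
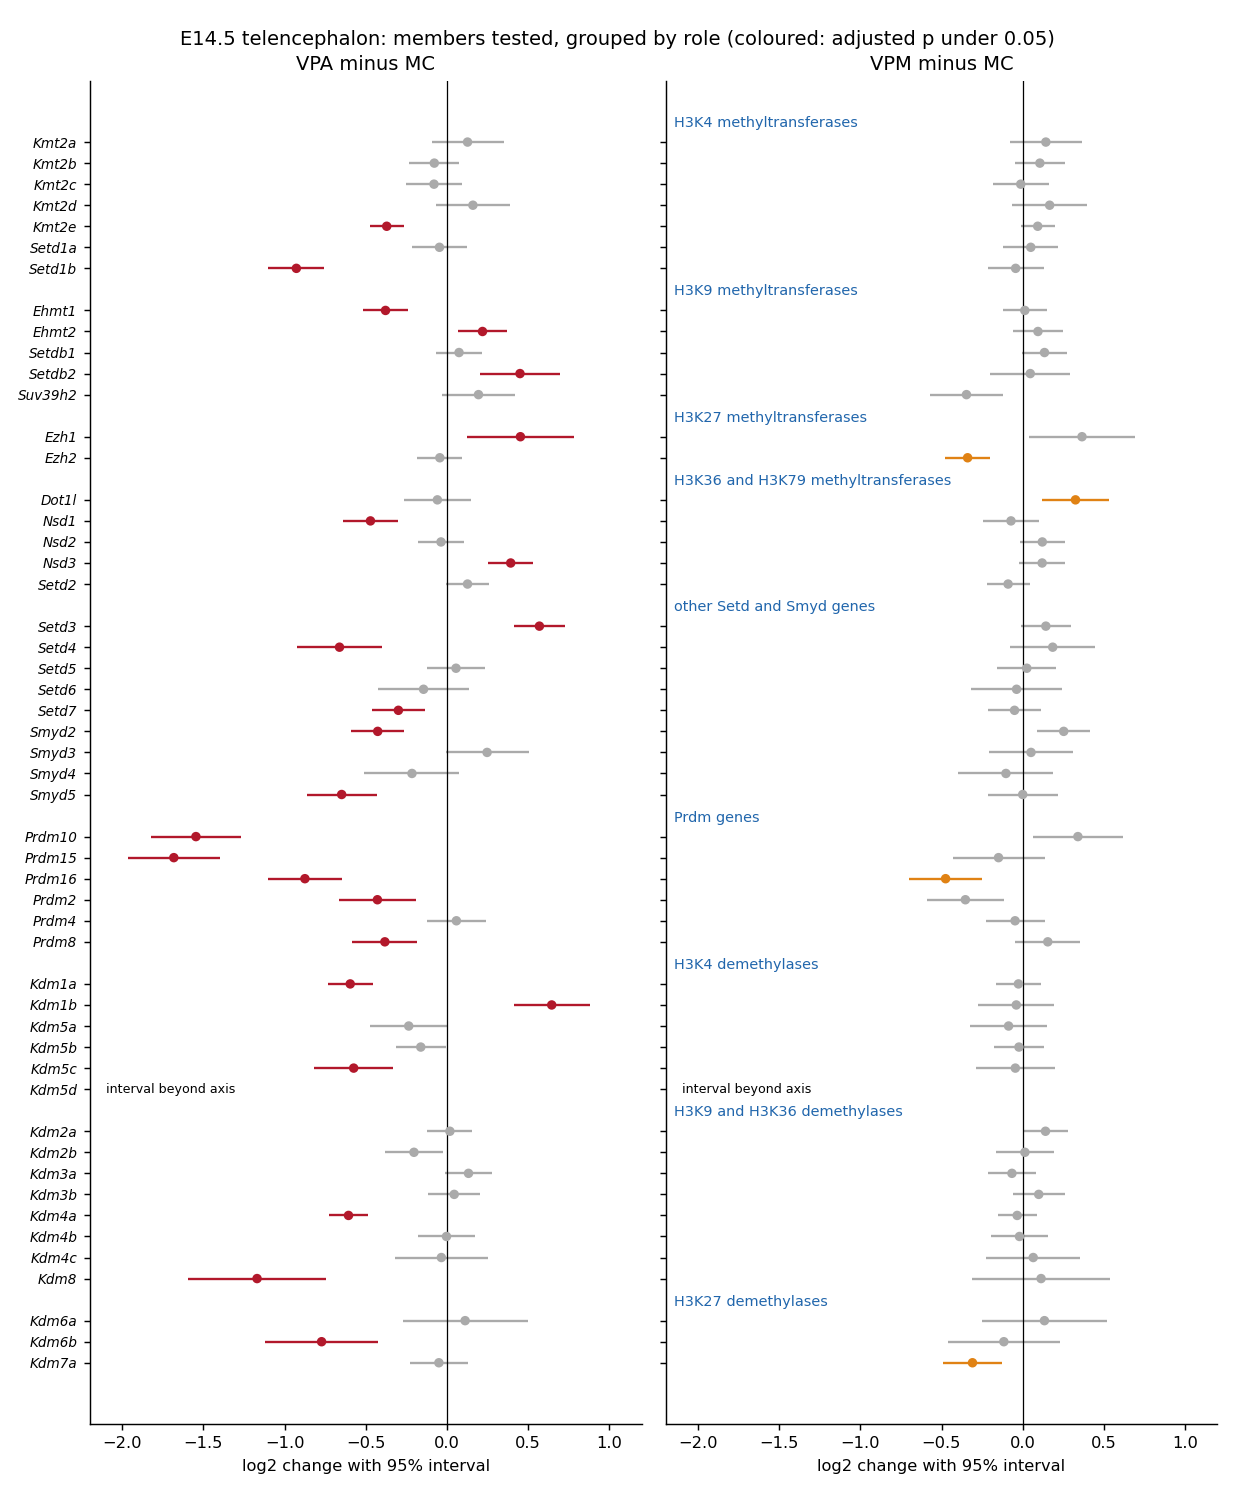
Log2 change with its 95% interval (x axis) for the 51 members tested at E14.5, 1 line per gene grouped by role, for VPA minus MC (left) and VPM minus MC (right); colour marks an adjusted p under 0.05 and grey the rest, and the interval of Kdm5d runs beyond the axis and is not drawn. The left panel has 24 coloured genes, 18 of them left of 0, and the right panel has 4, of which Dot1l lies right of 0.

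The groups of VPA and MC arrays did not overlap for 26 of the 51 members, against 60.2% of all genes tested. Other probe sets were tested for 12 of the 24 changed members, and 23 of these 23 probe sets moved in the same direction as the probe set used. Leaving out any 1 array of either group gave 23 to 25 changed members. Marker genes of other kinds moved in the same comparison: all 8 tested cell cycle genes fell, with summed signals of 24880 to 27471 after VPA, against 33837 to 35111 after MC, and 5 of 8 progenitor genes fell, with sums of 44180 to 45635 after VPA, against 52634 to 56101 after MC. The 4 matched cortex markers (Tbr1, Fezf2, Cux2 and Rorb) summed to 3159 to 3316 after VPA, against 6122 to 6575 after MC. Summed neuron markers were 37949 to 39182 after VPA, against 41662 to 42421 after MC, astrocyte markers 2068 to 2276, against 2904 to 3308, endothelial markers 1418 to 1529, against 1907 to 2146, and red cell markers 6533 to 9976, against 10932 to 12902. Within the cortex, neuron, astrocyte and red cell sums some means were higher after VPA. These were Rorb (305, against 207), Snap25 (2723, against 1875), Syt1 (3382, against 3091), Slc17a7 (454, against 380), Aldh1l1 (540, against 523) and Alas2 (337, against 275). The other members were lower, apart from endothelial Flt1 (93.9 in both groups). The astrocyte sum fell mainly through Gja1 (863, against 1672). No marker of the cell cycle or progenitor lists had a mean under the floor in either group, and the part of all these markers in the changes of the methyltransferase and demethylase genes was not tested.

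Start-site sequences are shown for the 2 changed genes with the largest falls and the 2 with the largest rises after VPA that have exactly 1 promoter window in RefSeq (GRCm38.p6), so that the promoters behind the falls and the rises can be read side by side. Each window runs from 250 bases before to 50 bases after the annotated start, 5′ to 3′ on the gene's strand, with GC boxes (GGGCGG, or CCGCCC on the other strand) in capitals. The windows lie at chr7:125444370-125444669, plus strand, for Kdm8, at chr4:154636824-154637123, minus strand, for Prdm16, at chr13:47043249-47043548, plus strand, for Kdm1b, and at chr11:101226414-101226713, minus strand, for Ezh1.
Kdm8: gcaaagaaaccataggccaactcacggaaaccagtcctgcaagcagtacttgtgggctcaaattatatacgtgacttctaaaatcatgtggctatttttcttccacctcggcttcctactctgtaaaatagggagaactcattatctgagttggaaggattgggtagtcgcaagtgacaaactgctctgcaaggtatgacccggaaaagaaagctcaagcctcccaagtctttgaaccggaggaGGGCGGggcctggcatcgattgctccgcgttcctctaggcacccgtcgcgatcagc
Prdm16: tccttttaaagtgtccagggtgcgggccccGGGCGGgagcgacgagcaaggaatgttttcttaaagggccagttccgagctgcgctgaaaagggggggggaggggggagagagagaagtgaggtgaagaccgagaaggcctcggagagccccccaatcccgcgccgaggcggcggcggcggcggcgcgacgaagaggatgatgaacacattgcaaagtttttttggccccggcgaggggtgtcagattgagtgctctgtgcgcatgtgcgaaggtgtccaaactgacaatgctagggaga
Kdm1b: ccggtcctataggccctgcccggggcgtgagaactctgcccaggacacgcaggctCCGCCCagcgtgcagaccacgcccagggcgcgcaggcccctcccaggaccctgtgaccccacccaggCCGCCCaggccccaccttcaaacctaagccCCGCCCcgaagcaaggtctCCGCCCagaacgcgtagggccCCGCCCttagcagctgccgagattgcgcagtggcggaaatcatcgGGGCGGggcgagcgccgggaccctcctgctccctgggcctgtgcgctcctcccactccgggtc
Ezh1: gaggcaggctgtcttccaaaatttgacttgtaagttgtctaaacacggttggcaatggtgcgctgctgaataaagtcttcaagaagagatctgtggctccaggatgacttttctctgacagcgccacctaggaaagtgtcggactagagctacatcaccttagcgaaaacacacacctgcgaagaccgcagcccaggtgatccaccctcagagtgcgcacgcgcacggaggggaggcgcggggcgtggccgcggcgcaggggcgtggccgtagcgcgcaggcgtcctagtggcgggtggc

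GC boxes numbered 1 in the Kdm8 window, 1 in Prdm16, 6 in Kdm1b and 0 in Ezh1, and CpG dinucleotides numbered 13, 24, 26 and 23 in the same order. RefSeq windows were found for 45 of the 60 genes, 57 windows in all. A GC box was present in 61.4% of these 57 windows, against 35.7% of all 32851 windows, and the median number of CpG was 28, against 7. The CCAAT box (CCAAT or ATTGG) was present in 43.9% against 37.4%, the TATA box (TATAAA or TTTATA) in 5.26% against 13.6%, and the E-box CACGTG in 10.5% against 7.15%. No motif contains another. These matches describe the windows only.

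The partners of the enzymes, taken from lists of complex subunits, are given beside the 27% of all genes that rose and the 26.8% that fell after VPA at E14.5. Of 9 Polycomb repressive complex 2 genes 2 rose, Jarid2 (log2 change 0.47) and the core subunit Suz12 (0.35), and 1 fell, Mtf2 (-0.24). Of 16 Polycomb repressive complex 1 genes 4 rose and 6 fell, with Bmi1, a progenitor self-renewal gene, at -0.93 and Pcgf3 (-0.49), Pcgf2 (-0.69) and the ubiquitin ligase gene Ring1 (-0.53) also lower. Of 13 COMPASS and MLL complex genes 3 rose, among them Wdr5 (0.38), and 6 fell, among them Hcfc1 (-0.76), Ash2l (-0.43) and Ncoa6 (-0.37). Of 8 LSD1 and CoREST genes 3 rose (Phf21a 0.61, Hmg20b 0.65, Rcor1 0.42) and 4 fell, including the neural corepressor gene Rcor2 (-0.68).

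Among 10 H3K9 reader and silencing genes 1 rose, Mphosph8 (0.37), and 4 fell, including Atf7ip (-0.62), a cofactor of Setdb1, Atrx (-0.41) and Zfp644 (-0.66). Of 8 genes of the Dot1l and elongation factor list 2 rose, Aff1 (1.03) and Mllt6 (0.34), and 5 fell, including Mllt3 (-0.79) and Aff3 (-0.48). Of 9 related enzyme genes outside the symbol rule 1 rose, Riox1 (0.25), and 3 fell, the JmjC gene Phf2 (-0.78), Setmar (-1.28) and Hr (-1.16).

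The second comparison at E14.5 sets VPM, given at the same dose and times, against the vehicle. Of the 51 tested members 4 changed (7.84%), against 11.6% of all genes tested. Of the 4, 1 rose and 3 fell, against 5.65% and 5.91% of all genes tested. Ezh2 had signals of 5392, 4816 and 5186 after VPM, against 6439, 6211 and 6817 after MC, and fell without overlap, with a log2 change of -0.34 (95% interval -0.48 to -0.20, adjusted p = 0.00711). Prdm16, whose arrays are given above, was also lower (-0.47, 95% interval -0.70 to -0.25, adjusted p = 0.014). Kdm7a, a JmjC demethylase gene for H3K9 and H3K27, had 897, 927 and 999 after VPM, against 1045, 1239 and 1221 after MC, and fell (-0.31, 95% interval -0.49 to -0.13, adjusted p = 0.0325). Dot1l rose, with 796, 697 and 738 after VPM, against 628, 613 and 541 after MC (0.33, 95% interval 0.12 to 0.53, adjusted p = 0.0455). In all 4 genes the VPM arrays lay apart from the MC arrays, as did those of 11 members in all, against 32.8% of all genes tested.

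Ezh2 passed with no filter (adjusted p = 0.0424), on the values as deposited (adjusted p = 0.0433) and with inferred sex as a covariate (adjusted p = 0.00821). Prdm16 did not pass with no filter (adjusted p = 0.0758), while Kdm7a and Dot1l passed in none of these 3 fits (adjusted p from 0.0683 to 0.13 for Kdm7a and from 0.0935 to 0.242 for Dot1l). Leaving out 1 array of either group gave 1 to 3 changed members. Ezh2 passed each time. Without VPM replicate 3, the array with high Ttr, Ezh2 was the 1 member left, and Prdm16 (-0.37, adjusted p = 0.0563), Kdm7a (-0.35, adjusted p = 0.0522) and Dot1l (0.33, adjusted p = 0.115) did not pass. Kdm7a also missed the threshold without VPM replicate 1 (-0.28, adjusted p = 0.0944), VPM replicate 2 (-0.30, adjusted p = 0.0791), MC replicate 2 (-0.26, adjusted p = 0.11) and MC replicate 3 (-0.28, adjusted p = 0.112). Dot1l did so without VPM replicate 1 (0.28, adjusted p = 0.135), VPM replicate 2 (0.37, adjusted p = 0.0532), MC replicate 1 (0.37, adjusted p = 0.0592), MC replicate 2 (0.35, adjusted p = 0.0798) and MC replicate 3 (0.26, adjusted p = 0.154). With second probe sets Prdm16 gave -0.26 (adjusted p = 0.165) and Dot1l 0.09 (adjusted p = 0.678). In the partner lists Suz12 fell (-0.30), Rcor2 fell (-0.40), and Cbx2 (-0.31), Phc2 (-0.25) and Pcgf5 (-0.41) fell. Of the cell cycle genes 7 of 8 fell, with sums of 26851 to 29964 after VPM, against 33837 to 35111 after MC, and of the progenitor genes 5 of 8 fell (44610 to 47709 after VPM, against 52634 to 56101 after MC). Summed red cell markers were 2544 to 3166 after VPM, against 10932 to 12902 after MC, neuron markers 46532 to 49686, against 41662 to 42421, oligodendrocyte markers 1089.5 to 1507, against 557 to 909, and microglia markers 1320 to 1399, against 1064 to 1189. None of these 6 sums overlapped between VPM and MC, and their part in the fall of Ezh2 was not tested. The red cell sum was mostly the globin Hbb-y, with a mean of 1789 after VPM, against 10311 after MC. Hba-x and Hbb-bh1 were also lower, whereas Alas2 (544, against 275) and Slc4a1 (116, against 100) were higher.

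The 2 compounds, which differ by the carboxylic acid of VPA and the amide of VPM, were compared directly at matched dose and time in 3 tissues. At E14.5, 29 of the 51 tested members differed (56.9%), 9 higher and 20 lower after VPA than after VPM, against 54.5% of all genes tested (27.5% higher, 27% lower). The groups did not overlap for 32 of the 51 members, against 60.7% of all genes tested. The largest differences were those of Prdm10 (-1.89, 95% interval -2.16 to -1.61, adjusted p = 5.24e-07) and Prdm15 (-1.53, 95% interval -1.82 to -1.25, adjusted p = 2.12e-06), followed by Kdm8 (-1.28), Setd1b (-0.88), Setd4 (-0.85), Smyd2 (-0.68), Smyd5 (-0.65) and Kdm6b (-0.66), all lower after VPA. Kdm1b (0.68), Suv39h2 (0.54), Setd3 (0.43), Setdb2 (0.40), Ezh2 (0.30, 95% interval 0.16 to 0.43, adjusted p = 0.00189), Nsd3 (0.27), Kdm7a (0.26), Setd2 (0.22) and Kdm3a (0.20) were the 9 that were higher after VPA. The second probe set of Suv39h2 gave 0.07.

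The remaining members that were lower after VPA than after VPM were Kdm4a (-0.57), Kdm1a (-0.57), Prdm8 (-0.54), Kdm5c (-0.53), Kmt2e (-0.46), Nsd1 (-0.40), Prdm16 (-0.40), Ehmt1 (-0.39), Dot1l (-0.38), Setd7 (-0.25), Kdm2b (-0.22) and Kmt2b (-0.18). Prdm16 was thus lowest after VPA, intermediate after VPM and highest after MC, whereas Ezh2 was lowest after VPM. Of the 22 members that did not pass, Ezh1 differed by 0.09 (95% interval -0.24 to 0.42, adjusted p = 0.65) and Kdm6a by -0.02 (95% interval -0.41 to 0.36, adjusted p = 0.927). Kdm2b and Kmt2b did not pass when any of 5 arrays and any of 4 arrays was left out, with adjusted p from 0.0549 to 0.151 for Kdm2b (all but VPA replicate 3) and from 0.0927 to 0.15 for Kmt2b (VPA replicates 2 and 3, VPM replicates 1 and 3). Kdm2b was -0.11 without VPA replicate 2. Kdm3a did not pass without VPA replicate 3 or VPM replicate 2 or 3 (0.15 to 0.19), Kdm7a without VPA replicate 3 or VPM replicate 1 (0.22 to 0.23), and Setd7 without VPM replicate 1 or 3 (-0.22 to -0.21).

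**Figure D3:**
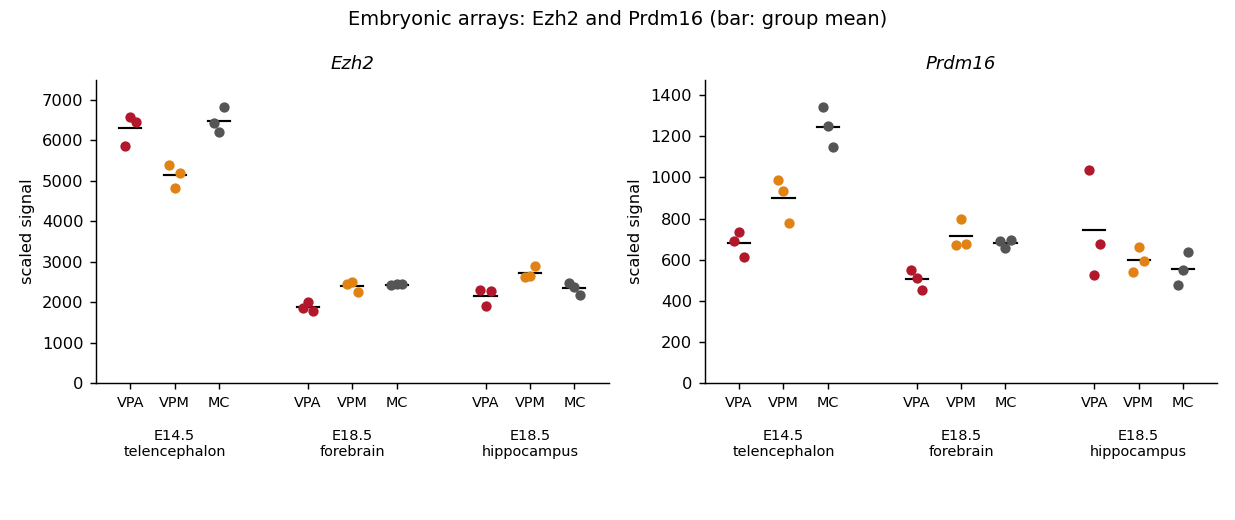
Scaled signal (y axis, linear from 0) of Ezh2 (left) and Prdm16 (right) on the 27 embryonic arrays, 1 point per array and a bar at the mean, for VPA, VPM and MC in E14.5 telencephalon, E18.5 forebrain and E18.5 hippocampus. In the E18.5 forebrain the VPA points of both genes lie below all VPM and MC points, with Ezh2 means of 1878 after VPA and 2399 after VPM, against 2431 after MC.

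By E18.5, 4 days after the last dose, few members differed between the groups. In the forebrain 2 of 50 tested members fell after VPA and 0 rose (4%), against 2.16% of all genes tested, with 1.06% lower and 1.09% higher. Ezh2 had signals of 1842, 2014 and 1779 after VPA and 2458, 2486 and 2251 after VPM, against 2411, 2438 and 2444 after MC. The VPA arrays lay below the other 6, with a log2 change of -0.37 (95% interval -0.50 to -0.25, adjusted p = 0.0109) against MC and -0.35 (95% interval -0.48 to -0.23, adjusted p = 0.027) against VPM. Prdm16 read 549, 513 and 451 on the VPA arrays and 672, 795 and 674 on the VPM arrays, against 688, 658 and 694 on the MC arrays. Its VPA arrays were likewise the lowest, with a log2 change of -0.44 (95% interval -0.63 to -0.24, adjusted p = 0.0328) against MC and -0.50 (95% interval -0.70 to -0.30, adjusted p = 0.0414) against VPM. These were the 2 of 50 members (4%) that differed between VPA and VPM, against 0.53% of all genes tested.

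Prdm16 against MC missed the threshold in each of the 6 fits that left out 1 array (adjusted p from 0.0605 to 0.111), and Ezh2 missed it without VPA replicate 1 (-0.36, adjusted p = 0.0564). Against VPM, Prdm16 missed it in all 6 such fits (adjusted p from 0.0766 to 0.132), and Ezh2 without VPA replicate 1 (-0.34, adjusted p = 0.131), VPA replicate 3 (-0.32, adjusted p = 0.0665), VPM replicate 1 (-0.33, adjusted p = 0.09) and VPM replicate 2 (-0.33, adjusted p = 0.11). No member passed against MC on the values as deposited (Ezh2 -0.37, adjusted p = 1) or with no filter (Ezh2 -0.37, adjusted p = 0.0595), and the second probe set of Prdm16 gave -0.31 (adjusted p = 0.258). The choroid plexus markers moved with the group: their summed signal was 489 to 4815 on VPA arrays and 20072 to 23771 on VPM arrays, against 17675 to 25185 on MC arrays, and 4 of the 5 tested fell (Ttr -4.35, Folr1 -2.27, Otx2 -2.11, Clic6 -1.27). Of the cell cycle genes 3 of 8 fell (sums of 10475 to 11575 after VPA, against 12384 to 12942 after MC), as did 3 of 8 progenitor genes (27729 to 30567, against 30115 to 32767). Summed oligodendrocyte markers were higher, at 5640 to 5985 after VPA, against 4196 to 4790 after MC. Red cell markers (217 to 259, against 411 to 579) and telencephalon markers (6556 to 7434, against 7618 to 8236) were lower. Of the partner genes Mtf2 (-0.37) and Rcor2 (-0.64) fell. The part of these markers in the change of Ezh2 and Prdm16 was not tested.

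VPM left 0 of 50 members changed against MC in the E18.5 forebrain by limma (0% of all genes tested), with 4 at an unadjusted p under 0.05. The smallest p-values were those of Prdm2 (-0.22), Kdm6a (-0.41) and Prdm10 (-0.21), each at an adjusted p of 0.897. For X-linked Kdm6a, high-Xist arrays numbered 1 of 3 in this VPM group and 2 of 3 in MC. In the E18.5 hippocampus 0 of 51 members passed for VPA against MC (0% of all genes, 4 members at an unadjusted p under 0.05), with Nsd3 (0.17, adjusted p = 0.284), Kdm1a (-0.12, adjusted p = 0.319) and Prdm8 (-0.22, adjusted p = 0.32) nearest. For VPM against MC 0 of 51 passed (0.00867% of all genes, 3 members at an unadjusted p under 0.05), with Kdm6b (0.31, adjusted p = 0.346), Ezh2 (0.22, adjusted p = 0.415) and Kdm4a (0.18, adjusted p = 0.45) nearest. Between VPA and VPM 0 of 51 passed (0% of all genes, 4 at an unadjusted p under 0.05). Groups in the forebrain did not overlap for 9 members in VPA against MC, 3 in VPM against MC and 10 in VPA against VPM, where 22.3%, 11.4% and 17.1% of all genes tested did not. In the hippocampus these were 4, 3 and 7 members, and 17.8%, 15.5% and 22.1% of all genes.

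Ezh2 had the smallest p between the compounds in the E18.5 hippocampus. Its signals there were 2292, 1911 and 2282 after VPA and 2627, 2641 and 2904 after VPM, against 2480.0, 2368 and 2180.3 after MC. The VPA and VPM groups did not overlap, with a log2 difference of -0.34 (95% interval -0.51 to -0.16, adjusted p = 0.117), which did not pass. Summed choroid plexus markers ran from 22232 to 26439 after VPA and from 1036 to 26500 after VPM, against 1643 to 28890 after MC in this tissue, and their part was not tested. Prdm8 (-0.26, adjusted p = 0.204) and Kdm6b (-0.20, adjusted p = 0.228) followed. Prdm16 in the same tissue read 1036, 525 and 675 after VPA, against 478, 549 and 635 after MC, a log2 difference of 0.38 (adjusted p = 0.453). The difference of its VPA effect between hippocampus and forebrain was 0.82, with an adjusted p of 0.427, and 0 of 54 members passed that test (0% of all genes, 9 members at an unadjusted p under 0.05).

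A further test asked whether the effect of VPA on each gene at E18.5 in the forebrain differed from that at E14.5 in the telencephalon. It did for 22 of 51 members (43.1%), 14 with a more positive and 8 with a more negative effect at E18.5, against 39.1% of all genes tested (18.7% and 20.4%). Age, dissected region, time since dosing and array set change together between these groups and cannot be told apart. All 14 were genes that fell at E14.5: Prdm15 had an effect of -0.06 at E18.5 and -1.68 at E14.5, a difference of 1.62 (95% interval 1.29 to 1.95, adjusted p = 5.04e-07). Prdm10 had -0.17 at E18.5 and -1.55 at E14.5 (difference 1.38, 95% interval 1.05 to 1.71, adjusted p = 2.46e-06). Setd1b had -0.02 and -0.93 (difference 0.91, 95% interval 0.68 to 1.13, adjusted p = 3.68e-06). Kdm4a had 0.02 and -0.61 (difference 0.62, 95% interval 0.48 to 0.76, adjusted p = 1.29e-06), and Kdm1a had -0.05 and -0.60 (difference 0.55, 95% interval 0.39 to 0.71, adjusted p = 1.87e-05).

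Ezh2 did not pass at E14.5 and fell at E18.5, with effects of -0.37 at E18.5 and -0.04 at E14.5, and the difference passed (-0.33, 95% interval -0.51 to -0.15, adjusted p = 0.00539). Kdm1b (-0.79, adjusted p = 3.63e-04), Setd3 (-0.55, adjusted p = 8.48e-04) and Nsd3 (-0.40, adjusted p = 3.59e-04), which rose at E14.5, also had more negative effects at E18.5. Prdm16 fell at both ages, by more at E14.5 (difference 0.44, 95% interval 0.14 to 0.74, adjusted p = 0.0206); that difference missed the threshold without E18.5 forebrain VPA replicate 1 (0.38, adjusted p = 0.0585), E14.5 VPA replicate 3 (0.37, adjusted p = 0.0606) or E14.5 MC replicate 1 (0.39, adjusted p = 0.0539). Ehmt1, Ehmt2, Setdb2 and Suv39h2 also lost their call for this difference in 3, 4, 2 and 2 of the 12 fits that left out 1 array (Ehmt1 0.22 to 0.26, without E18.5 forebrain VPA replicate 3, E18.5 forebrain MC replicate 1 or E14.5 VPA replicate 1; Ehmt2 -0.25 to -0.19, without E18.5 forebrain VPA replicate 2, E18.5 forebrain MC replicate 1, E14.5 VPA replicate 2 or E14.5 MC replicate 3; Setdb2 -0.41 to -0.40, without E18.5 forebrain MC replicate 1 or E14.5 VPA replicate 2; Suv39h2 -0.40 in both, without E18.5 forebrain MC replicate 2 or E14.5 VPA replicate 1). On the values as deposited 5 members passed this test.

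In the offspring at 12 to 13 weeks and at P84, 0 of the 56 to 57 members tested passed in any of the 11 comparisons of drug, wheel or their interaction. In the P84 hippocampus, after VPA against MC, 0 of 56 members passed by limma (0% of all genes, 1 member at an unadjusted p under 0.05, and groups apart for 1, against 2.98% of all genes), and Kdm2b (-0.13, adjusted p = 0.902), Smyd2 (0.12, adjusted p = 0.902) and Kdm6b (-0.17, adjusted p = 0.902) were nearest. For VPA against MC without a wheel 0 of 56 passed in the adult hippocampus (0% of all genes, 4 members at an unadjusted p under 0.05, and groups apart for 13, against 16.9% of all genes), with Kmt2e (0.22, adjusted p = 0.348), Setd6 (-0.30, adjusted p = 0.37) and Dot1l (-0.22, adjusted p = 0.388) nearest. In the adult cortex 0 of 57 passed for the same contrast (0.00735% of all genes, 5 members at an unadjusted p under 0.05, and groups apart for 6, against 15.7% of all genes), with Prdm2 (0.24, adjusted p = 0.4), Setd5 (0.17, adjusted p = 0.409) and Kdm7a (-0.15, adjusted p = 0.41) nearest. For genes with large changes at E14.5, the intervals at P84 were as follows: the log2 change of Prdm15 was -0.10 (95% interval -0.35 to 0.14), that of Prdm10 -0.16 (-0.47 to 0.14), that of Setd1b 0.01 (-0.15 to 0.16) and that of Kdm1a -0.01 (-0.12 to 0.10). Ezh2 had signals of 134, 157, 117 and 179 after VPA, against 157, 137, 133 and 153 after MC at P84, and these groups overlapped.

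With a wheel in both groups, VPA+RW against MC+RW gave 0 of 56 members in the hippocampus (0% of all genes, 3 at an unadjusted p under 0.05), with groups apart for 2 members, against 9.42% of all genes, and with Kdm3a (-0.28, adjusted p = 1), Prdm11 (-0.34, adjusted p = 1) and Kdm2a (-0.20, adjusted p = 1) nearest. In the cortex it gave 0 of 57 (0.022% of all genes, 2 at an unadjusted p under 0.05, and groups apart for 11, against 15.3% of all genes), with Kdm7a (-0.25, adjusted p = 0.246), Smyd1 (0.36, adjusted p = 0.434) and Kmt2c (-0.17, adjusted p = 0.523) nearest. The interaction of drug and wheel passed for 0 members in the hippocampus (0% of all genes, 4 at an unadjusted p under 0.05; Setd5 -0.26, Kmt2e -0.22 and Prdm16os 0.58, each at an adjusted p of 0.961). It also passed for 0 members in the cortex (0% of all genes, 3 at an unadjusted p under 0.05; Setd5 -0.27, Smyd1 0.53 and Prdm2 -0.34, each at an adjusted p of 0.764).

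Kdm7a had the smallest p of all members in each of the 4 comparisons of a wheel with no wheel, and passed in none. In the adult hippocampus its signals were 2364, 2603 and 1987 after VPA+RW, against 1926, 1840.1 and 1955 after VPA, and 2644, 2683 and 2404 after MC+RW, against 1878, 1765 and 1893 after MC. In the adult cortex they were 1697, 1790.5 and 1605 after VPA+RW, against 1502, 1407 and 1531 after VPA, and 2079.7, 1986 and 2005 after MC+RW, against 1608, 1689 and 1618 after MC. The wheel groups lay above their groups without a wheel, with no overlap, in all 4 pairs. Over all members, groups did not overlap for 8 in MC+RW against MC and 12 in VPA+RW against VPA in the hippocampus, where 12.8% and 15.6% of all genes tested did not overlap, and for 8 and 9 in the cortex, where 17.8% and 13.3% did not. The log2 differences were 0.48 (95% interval 0.30 to 0.66, adjusted p = 0.141) for MC+RW over MC and 0.27 (95% interval 0.09 to 0.45, adjusted p = 0.391) for VPA+RW over VPA in the hippocampus. In the cortex they were 0.30 (95% interval 0.18 to 0.43, adjusted p = 0.0955) and 0.20 (95% interval 0.07 to 0.32, adjusted p = 0.569). In the cortex, MC+RW over MC passed without MC+RW replicate 3 (0.31, adjusted p = 0.0491).

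Setd7 (0.19, adjusted p = 0.412) and Setd6 (-0.31, adjusted p = 0.426) followed in MC+RW over MC in the hippocampus, where 0 of 56 members passed (0% of all genes, 5 at an unadjusted p under 0.05). In the cortex Setd5 (0.27, adjusted p = 0.172) and Setd7 (0.22, adjusted p = 0.172) followed, with 0 of 57 members passing (0.0147% of all genes, 5 at an unadjusted p under 0.05). For VPA+RW over VPA, Dot1l (0.23, adjusted p = 0.488) and Kmt2e (-0.17, adjusted p = 0.507) came next in the hippocampus (0 of 56 passing, 0% of all genes, 8 at an unadjusted p under 0.05). Setdb2 (-0.37, adjusted p = 0.745) and Prdm2 (-0.20, adjusted p = 0.772) came next in the cortex (0 of 57 passing, 0% of all genes, 5 at an unadjusted p under 0.05).

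**Figure D4:**
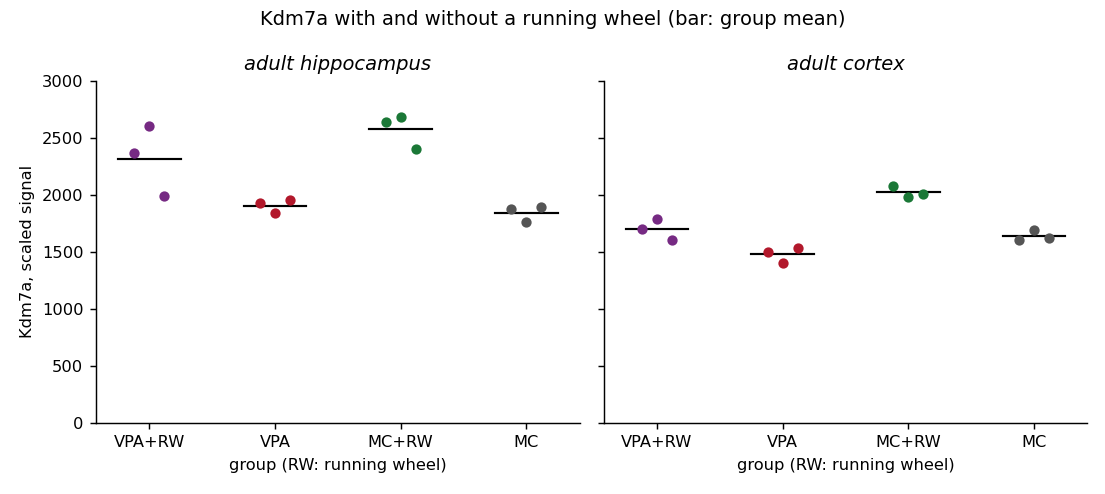
Scaled signal of Kdm7a (y axis, linear from 0) on the 24 adult arrays of the running wheel set, 1 point per array and a bar at the mean, for VPA+RW, VPA, MC+RW and MC in hippocampus (left) and cortex (right), 3 arrays each. In each tissue the points of the 2 wheel groups sit above those of the matching groups without a wheel, and no comparison passed the threshold.

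The vehicle groups give the course of these genes without either drug. E18.5 forebrain against E14.5 telencephalon changed 31 of 57 tested members (54.4%), 9 up and 22 down, against 54.1% of all genes tested (30.2% up, 23.9% down). Age goes with the array set in all comparisons between ages, and an effect of array processing cannot be told apart from age. Ezh2 had signals of 2411, 2438 and 2444 in E18.5 forebrain, against 6439, 6211 and 6817 in E14.5 telencephalon, and Kdm7a had 486, 575 and 545, against 1045, 1239 and 1221. Both fell without overlap, with log2 changes of -1.42 (95% interval -1.64 to -1.19, adjusted p = 2.31e-09) for Ezh2 and -1.13 (95% interval -1.29 to -0.96, adjusted p = 5.47e-10) for Kdm7a. The other large falls were Suv39h2, an H3K9 trimethylase gene (-1.05, adjusted p = 1.23e-04), Kdm3a, an H3K9 demethylase gene (-0.91, adjusted p = 9.51e-07), Prdm16 (-0.87, adjusted p = 5.88e-05), Kdm8 (-0.76, adjusted p = 0.001), Setd7 (-0.52, adjusted p = 6.68e-06), Kdm2a (-0.50, adjusted p = 3.04e-05), Kdm5b (-0.46, adjusted p = 4.19e-05) and Ehmt1 (-0.41, adjusted p = 1.95e-05). The second probe set of Setd7 gave 0.030 (adjusted p = 0.968).

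Markers of other kinds moved over the same interval, and their part in the changes of the members was not tested. All 8 cell cycle genes fell, with sums of 12384 to 12942 in E18.5 forebrain MC arrays, against 33837 to 35111 in E14.5 telencephalon MC arrays, as did all 8 progenitor genes (30115 to 32767, against 52634 to 56101). Choroid plexus markers summed to 17675 to 25185 at E18.5, against 238 to 316 at E14.5, with 5 of 6 higher, and 3 of the 6 had a mean under the floor at E14.5. Astrocyte markers (5735 to 7016, against 2904 to 3308), neuron markers (54141 to 60379, against 41662 to 42421) and oligodendrocyte markers (4196 to 4790, against 557 to 909) were also higher at E18.5. Summed red cell markers were lower (411 to 579, against 10932 to 12902). This sum followed Hbb-y (mean 17.7 at E18.5, against 10311 at E14.5). Hba-x, Hbb-bh1 and Slc4a1 were lower as well, whereas Alas2 was higher (389, against 275).

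The 9 that rose were Ezh1 (0.72, adjusted p = 6.69e-05), Smyd2 (0.61, adjusted p = 3.23e-08), Smyd5 (0.47, adjusted p = 5.51e-05), Kdm6a (0.44, adjusted p = 0.00605), Prdm10 (0.44, adjusted p = 0.00813), Nsd3 (0.36, adjusted p = 0.0066), Setd6 (0.32, adjusted p = 0.0184), Kdm1b (0.31, adjusted p = 0.0242) and Nsd2 (0.29, adjusted p = 0.00342). For Nsd2 and Nsd3 the direction depends on the probe set: 1 other probe set of Nsd2 (-0.98, adjusted p = 1.75e-04) and 1 of Nsd3 (-0.33, adjusted p = 0.0448) fell. The second probe set of Kdm6a gave -0.17 (adjusted p = 0.571). Kdm6a had 2 high-Xist arrays among 3 in the E18.5 forebrain, against 1 of 3 in the E14.5 telencephalon, and its groups overlapped. Smaller falls were those of Kdm1a (-0.34), Setd3 (-0.34), Setd1a (-0.29), Ehmt2 (-0.22), Prdm2 (-0.26), Prdm8 (-0.34), Setdb2 (-0.38), Prdm15 (-0.36), Kdm3b (-0.37), Kdm4a (-0.30), Dot1l (-0.27) and Kmt2b (-0.20). The second probe set of Setd3 gave 0.58 (adjusted p = 0.0691). Left out in turn, each of the 6 arrays ended the call of at least 1 of 8 of these genes: Setd6 without E18.5 forebrain MC replicate 1 or E14.5 MC replicate 3 (0.28 to 0.30), Setdb2 without E18.5 forebrain MC replicate 2 or E14.5 MC replicate 1 (-0.35 to -0.31), Kdm4a without E18.5 forebrain MC replicate 2 or 3 or E14.5 MC replicate 2 (-0.30 to -0.28), and Kdm1b without E18.5 forebrain MC replicate 2 or E14.5 MC replicate 1 or 2 (0.25 to 0.28). Prdm8 lost its call without E18.5 forebrain MC replicate 3 or E14.5 MC replicate 2 (-0.27 in both), Kdm3b without E18.5 forebrain MC replicate 3 or E14.5 MC replicate 1 (-0.32 to -0.31), Prdm15 without E18.5 forebrain MC replicate 3 or E14.5 MC replicate 1 or 3 (-0.33 to -0.30), and Kmt2b without any of 5 arrays, all but E14.5 MC replicate 3 (-0.22 to -0.15). On the values as deposited, where the median of all genes moved by 0.41, 20 members passed, 16 of them up and 4 down, so the balance of falls over rises here holds for the scaled values and not for the deposited ones.

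Between E18.5 forebrain and adult cortex most members and most genes changed. Of 57 members 51 changed (89.5%), 16 up and 35 down in adult cortex, against 80.9% of all genes tested (44.8% up, 36.1% down), and the median log2 change was -0.41 over the members and 0.14 over all genes. Ezh2 had signals of 122, 164 and 168 in adult cortex, against 2411, 2438 and 2444 in E18.5 forebrain, a log2 change of -4.02 (95% interval -4.24 to -3.79, adjusted p = 1.36e-16). Ezh1, the paralogue, had 874, 982 and 849, against 306, 349 and 355, and rose by 1.42 (95% interval 1.16 to 1.68, adjusted p = 4.16e-09). For both paralogues the ages did not overlap, and the directions were opposite.

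Kdm6b was next among the falls, with 229, 300.0 and 445 in adult cortex, against 2427, 2539 and 2960.2 in E18.5 forebrain (-3.07, 95% interval -3.40 to -2.75, adjusted p = 1.07e-12). Kdm2b, an H3K36 demethylase gene that also recruits a Polycomb repressive complex 1, had 819, 809 and 705, against 6001, 6302 and 5714 (-2.95, 95% interval -3.15 to -2.75, adjusted p = 1.36e-15). Kdm1a had 1571, 1668 and 1470.3, against 5962, 6139 and 6172 (-1.96, 95% interval -2.08 to -1.84, adjusted p = 3.91e-16). None of these 3 genes overlapped between the ages. Ehmt1 (-1.85, adjusted p = 4.34e-15), Kdm1b (-1.62, adjusted p = 8.02e-11), Prdm4 (-1.61, adjusted p = 1.58e-11), Prdm16 (-1.55, adjusted p = 1.43e-08), Kdm5b (-1.51, adjusted p = 9.76e-13) and Nsd3 (-1.36, adjusted p = 5.29e-10) complete the 10 largest falls, although a second probe set of Nsd3 rose (0.39, adjusted p = 9.45e-05).

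Setd7 had 3161, 3074 and 3159 in adult cortex, against 793, 871 and 859 in E18.5 forebrain (1.90, 95% interval 1.74 to 2.05, adjusted p = 2.17e-14), and Kdm7a had 1608, 1689 and 1618, against 486, 575 and 545 (1.62, 95% interval 1.46 to 1.78, adjusted p = 4.59e-13). Both rose without overlap, Kdm7a after its fall between E14.5 and E18.5. Prdm11 had the largest rise, with 1138, 1100.2 and 873 in adult cortex, against 74.8, 51.0 and 17.7 in E18.5 forebrain. One E18.5 array lay under the floor of 32, and the second Prdm11 probe set fell (-0.67, adjusted p = 2.96e-04), so the direction depends on the probe set. Kdm8 (0.75) also rose, as did Kdm5d, for which 2 of the 3 E18.5 forebrain arrays were high-Xist arrays under the floor. Prdm11, Smyd1 (2.04), Kdm4d (1.54), Prdm1 (1.44) and Prdm16os (0.93), 5 of the 16 higher members, reached the filter on low signals only through adult arrays. A tested difference of these 5 could therefore only be a higher adult level, and their values are a description.

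**Figure D5:**
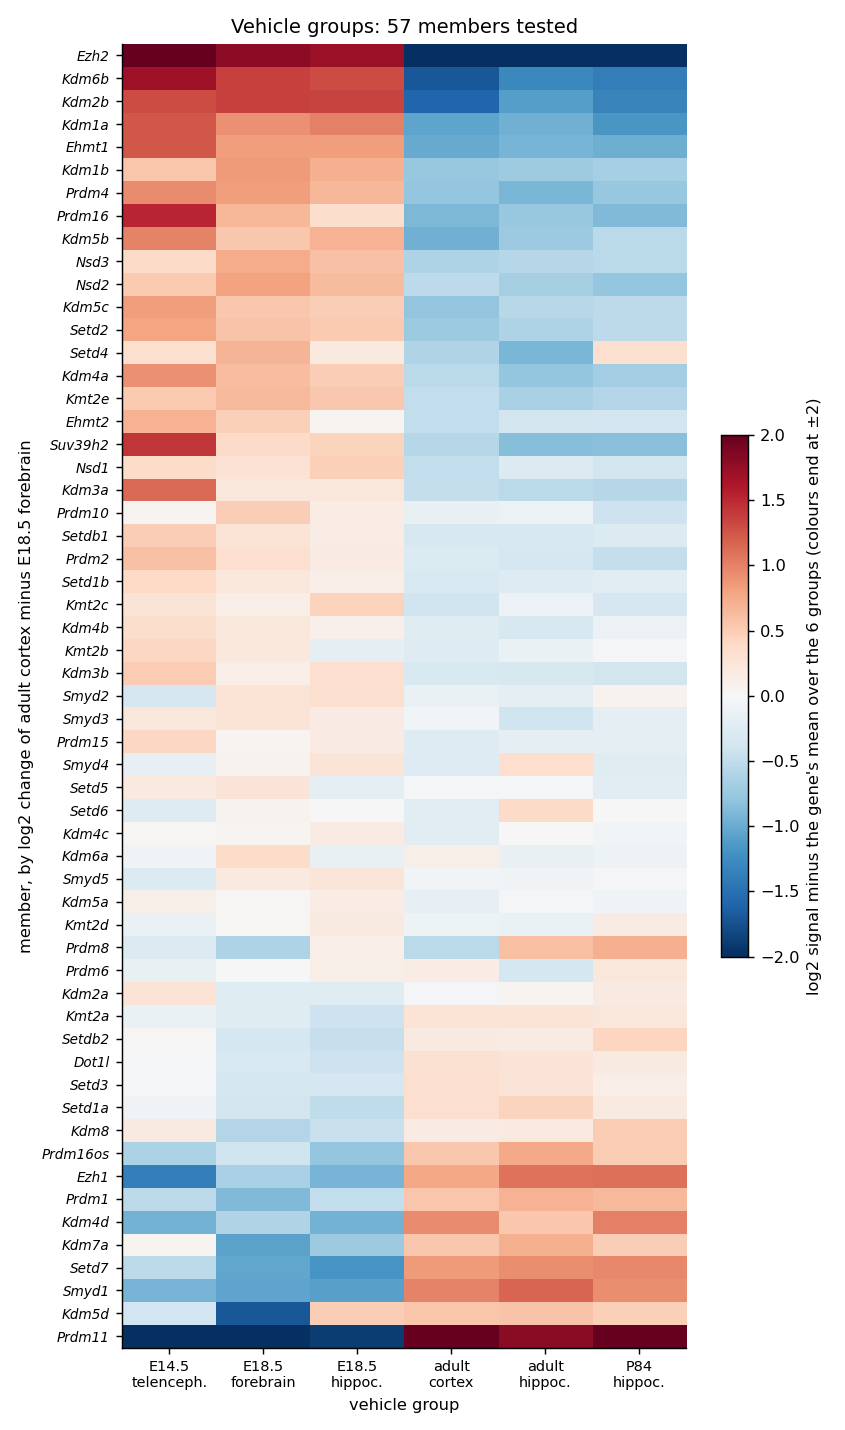
Mean log2 signal of each of the 57 members tested, minus that gene's mean over the 6 vehicle groups (colour, ending at ±2), with groups from E14.5 to P84 across and genes down the page ordered by the change of adult cortex against E18.5 forebrain. Ezh2, Kdm6b and Kdm2b at the top are high in the embryonic groups and low in the 3 adult groups, and Prdm11, Smyd1 and Setd7 near the bottom show the reverse.

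The hippocampus groups compared share no array with the cortex comparison's groups. Both comparisons came from 1 fit of all vehicle arrays, with 1 filter and 1 estimate of the spread per gene, so their calls are not independent. P84 hippocampus against E18.5 hippocampus changed 46 of 57 members (80.7%), 16 up and 30 down, against 82.8% of all genes tested (45.2% up, 37.7% down). Of the members higher in the adult tissue 15 were shared, 93.8% of those in cortex and 93.8% of those in hippocampus, where 88.5% and 87.8% of all higher genes were shared. Of the lower ones 30 were shared, 85.7% of those in cortex and 100% of those in hippocampus, where 88.6% and 84.8% of all lower genes were shared. In opposite directions went 0 members, against 1.45% of all genes tested. The 15 shared higher members include Prdm11, Smyd1, Kdm4d, Prdm1 and Prdm16os, which reached the filter only through adult arrays. A call of these genes could only be a higher adult level, so their agreement is no support. Genes of this kind were not taken out of the shares or of the counts of opposite directions. Ezh2 had 157, 137, 133 and 153 at P84, against 2480.0, 2368 and 2180.3 at E18.5 (-4.02, 95% interval -4.23 to -3.81, adjusted p = 3.39e-17), and Ezh1 had 1141, 1149, 1104 and 1123, against 261, 254 and 316 (2.03, 95% interval 1.79 to 2.28, adjusted p = 5.40e-12). Neither gene overlapped between the ages.

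Kdm6b (-2.70), Kdm2b (-2.68), Kdm1a (-2.18), Ehmt1 (-1.80), Prdm4 (-1.42), Nsd2 (-1.40), Kdm1b (-1.38), Suv39h2 (-1.28), Kdm5b (-1.25) and Prdm16 (-1.23) were the next largest falls at P84. Another probe set rose for Kdm6b (1.70), Nsd2 (1.14), Kdm5b (1.90) and Prdm16 (1.19, adjusted p = 4.44e-04), so the direction of these 4 genes depends on the probe set. These other probe sets averaged 98.2, 85.4, 90.8 and 81.6 over all arrays, in that order. The probe sets used averaged 1432, 1328, 1552 and 467. The part of low signal in the opposite directions was not tested. Setd7 (2.14), Kdm7a (1.21), Kdm8 (0.95), Setdb2 (0.89), Setd1a (0.70) and Kmt2a (0.63) rose. Prdm11 read 919, 1041, 706 and 817 at P84, against 16.8, 23.3 and 165 at E18.5, where 2 of 3 arrays lay under the floor, and its second probe set gave -0.26 (adjusted p = 0.0837). Smyd1 (2.00), Prdm16os (1.28) and Prdm1 (1.15) were higher at P84, and Kdm4d was higher than E18.5 arrays that all lay under the floor, so no fold is given for Prdm11 or Kdm4d. As in the cortex comparison, these 5 genes reached the filter only through adult arrays.

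By role, the changes between E18.5 forebrain and adult cortex were 4 falls and 1 rise among the 5 H3K9 methyltransferase genes, 4 falls and 1 rise among the 5 H3K36 and H3K79 genes, and 5 falls and 1 rise among the 6 H3K4 demethylase genes. The 7 H3K4 methyltransferase genes gave 4 falls and 2 rises, the 10 other Setd and Smyd genes 6 falls and 3 rises, the 9 tested Prdm genes 5 falls and 2 rises, and the 9 H3K9 and H3K36 demethylase genes 5 falls and 3 rises. In the same comparison 80.9% of all genes tested changed, 36.1% down and 44.8% up, and no role was tested as a set. The rises include Prdm11, Prdm1, Kdm4d and Smyd1, which reached the filter only through adult arrays and could only be called higher there. The rise among the H3K4 demethylase genes was that of Y-linked Kdm5d. High-Xist arrays numbered 2 of 3 in the E18.5 forebrain MC group, so age and sex makeup cannot be told apart for this gene. Probe sets of one gene did not always move together: of 68 other probe sets of changed members 26 went the opposite way in the cortex comparison, 17 of them past the threshold, and of 62 in the hippocampus comparison 24 went the opposite way, 13 of them past the threshold. Genes with such probe sets in the cortex comparison were Kdm3b, Kdm5a, Kdm5b, Kdm5c, Kdm6b, Kmt2c, Kmt2e, Dot1l, Nsd1, Nsd2, Nsd3, Prdm10 and Prdm11. In the hippocampus comparison they were Kdm3b, Kdm5a, Kdm5b, Kdm6b, Kmt2e, Nsd1, Nsd2, Nsd3, Prdm10 and Prdm16. Of all probe sets, 18.2% to 23.6% lay under the floor on each adult array, against 29.6% to 38.0% on each embryonic array. The part of this difference in the opposite directions was not tested.

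Marker genes of other kinds changed over the same interval. All 8 cell cycle genes fell, with sums of 2575 to 2811 in adult cortex MC arrays, against 12384 to 12942 in E18.5 forebrain MC arrays, and 7 of 8 progenitor genes fell (5608 to 6201, against 30115 to 32767). All 5 microglia markers and 4 of 5 astrocyte markers rose. Summed oligodendrocyte markers were 18705 to 22262 in adult cortex, against 4196 to 4790 in E18.5 forebrain. Choroid plexus markers summed to 1108 to 1203, against 17675 to 25185. In P84 hippocampus MC arrays the cell cycle markers summed to 2523 to 2865, against 13283 to 14618 in E18.5 hippocampus MC arrays. Progenitor markers there summed to 5371 to 6523, against 37202 to 39926. Of the cell cycle markers 1 had a mean under the floor in adult cortex. The part of these shifts in the falls of Ezh2 and the other members was not tested.

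Between tissues of one age fewer members differed. E18.5 hippocampus against E18.5 forebrain changed 7 of 57 (12.3%), against 20.6% of all genes tested: Prdm8 (0.75, adjusted p = 7.92e-05), Kdm7a (0.35, adjusted p = 0.00318) and Kmt2c (0.33, adjusted p = 0.00383) were higher in hippocampus, and Kdm6a (-0.51, adjusted p = 0.00702), Setd5 (-0.44, adjusted p = 0.00817), Ehmt2 (-0.43, adjusted p = 4.28e-05) and Kmt2b (-0.39, adjusted p = 0.00169) were lower. For Kdm6a, high-Xist arrays numbered 0 of 3 in hippocampus and 2 of 3 in forebrain, and Setd5 did not pass without E18.5 hippocampus MC replicate 1 (-0.31, adjusted p = 0.0601). Adult hippocampus against adult cortex changed 7 of 57 (12.3%), all of them higher in hippocampus, against 16.4% of all genes tested (7.72% higher). Prdm8 had 2295, 2006 and 2384 in adult hippocampus, against 867, 1083 and 1079 in adult cortex (1.15, 95% interval 0.92 to 1.38, adjusted p = 2.72e-07), a difference without overlap and of the same direction as at E18.5. The others were Setd6 (0.60, adjusted p = 5.56e-04), Smyd4 (0.59, adjusted p = 0.00155), Kdm2b (0.47, adjusted p = 0.00121), Kmt2c (0.28, adjusted p = 0.0161), Kdm5b (0.23, adjusted p = 0.0403) and Nsd1 (0.23, adjusted p = 0.0165).

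The second probe sets of Smyd4 (-0.47) and Nsd1 (-0.17) pointed the other way, that of Setd6 gave 0.08, and on the values as deposited 1 of the 7 passed. Kdm5b did not pass in the 5 fits that left out any of the adult hippocampus arrays or adult cortex replicate 2 or 3 (0.19 to 0.25, adjusted p from 0.07 to 0.15). Kmt2c did not pass without adult hippocampus replicate 1 (0.24, adjusted p = 0.0727) or adult cortex replicate 3 (0.21, adjusted p = 0.0915), nor Nsd1 without adult hippocampus replicate 3 (0.20, adjusted p = 0.0821), adult cortex replicate 2 (0.23, adjusted p = 0.0501) or adult cortex replicate 3 (0.21, adjusted p = 0.0562).

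Some members were near or below the limit of the array. Ezhip, Prdm14 and Prdm9 did not pass the filter in any comparison. At E14.5 the untested members were these 3 and Kdm4d, Prdm1, Prdm11, Prdm16os, Prdm6 and Smyd1, and at E18.5 Kdm8 joined the untested ones in both tissues, while Prdm6 was tested in the hippocampus. Prdm16os, the antisense partner of Prdm16, averaged 30.9 ± 6.82 after VPA and 63.3 ± 18.8 after VPM, against 78.6 ± 4.92 after MC at E14.5 (SD, 3 arrays each), below the filter in every group and therefore without a test.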

How the data were processed

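Total RNA of brain tissue was hybridised to 59 Affymetrix Mouse 430 2.0 arrays in 19 groups. The deposited value of each probe set is a linear intensity, made by the authors with GCOS per the submitters' processing notes; its signal algorithm is not stated and its scaling not given in the sources used here. Of 45101 probe sets, 34958 had a single symbol, and each of the 18194 genes was represented by its probe set of highest mean signal. Signals were rescaled so that every array had the same mean of 500 after trimming 2%, and log2 was taken above a floor of 32. Trimmed means as deposited ran from 197.6 to 419.4, and the number of arrays limits the precision. Genes with a scaled signal of at least 100 on at least 3 arrays (4 at P84) were tested with limma 3.58.1 in R 4.3.3 (1 term per group, trended variance), with Benjamini-Hochberg adjustment over all genes tested and a threshold of 0.05, in 27 comparisons. Drug and wheel comparisons were fitted within each age and tissue set. The vehicle comparisons shared 1 fit of all vehicle arrays, across ages and tissues. Each test of a difference between VPA effects used the arrays of both sets. The filter was applied over the arrays of each fit. The text names every changed member where 30 or fewer changed, otherwise the 30 with the smallest adjusted p, with the 10 largest changes in each direction between ages, and the 3 smallest p where none changed. Ezh1, Ezh2, Kdm6a, Kdm6b, Kdm5c and Kdm5d are always named, and up to 4 changed genes of each partner list. Other members that did not pass, and single members beyond these numbers, are named by role or pathway, a choice made with their values in view. The members and gene lists were chosen with earlier results of these data known. The tests were checked on simulated data. Alternatives were other scalings and filters, a second probe set, inferred sex and a replicate block as terms, and leaving out single arrays. Replicate numbers were checked as pairs: deviations of same-numbered samples correlated at -0.283 to 0.383 over the 6 sets, every pair lay over 0.1 in 0 of them, and the labels name no shared litter or day, so the numbers were not taken as pairs.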

Additional observations from a re-analysis of the deposited data

Results flagged for a closer look

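In the P84 hippocampus groups of 4 arrays, 66 sets of values were tested for a single array far from the others (Dixon's test on the gap to the nearest array at the 95% level), and 9 were found, where chance finds about 1 in 20. The high arrays were MC replicate 3 for Ehmt2 (2536), MC replicate 1 for Prdm16 (303), VPA replicate 4 for Kmt2c (1363), VPA replicate 3 for Prdm11 (991) and VPA replicate 2 for Smyd1 (458). The low arrays were MC replicate 1 for Setd7 (3211), VPA replicate 1 for Kdm5c (392), and VPA replicate 4 for Kdm6b (305) and Nsd3 (532). Choroid plexus Ttr was 16112 on VPA replicate 4 and 14621 on MC replicate 1, against 1964 or less on the other P84 arrays, and its part in these values was not tested.

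The effect of VPA at E18.5 in the forebrain differed from that at E14.5 in the telencephalon for 22 members. On the log2 scale the E18.5 effect was more positive for Prdm15 (1.62), Prdm10 (1.38), Kdm8 (1.14), Setd1b (0.91), Setd4 (0.82), Kdm4a (0.62), Kdm6b (0.62), Smyd5 (0.61), Smyd2 (0.61), Kdm1a (0.55), Prdm16 (0.44), Nsd1 (0.44), Kmt2e (0.35) and Ehmt1 (0.29). It was more negative for Kdm1b (-0.79), Setd3 (-0.55), Setdb2 (-0.48), Suv39h2 (-0.46), Nsd3 (-0.40), Ezh2 (-0.33), Kdm3a (-0.33) and Ehmt2 (-0.26). Age, region, time since dosing and array set cannot be told apart in this difference.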

How the results depend on the processing

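Over the named results and their alternatives, 2960 values kept direction and side of the threshold, 202 no longer passed, 1 newly passed and 40 reversed. The cause was not tested. The 21 members with 1 probe set kept it in the fits with second probe sets, so those fits are no check on them, although their values are counted here. VPA against MC at E14.5 gave 24 changed members, 20 on the values as deposited, 23 with no filter, 19 of 43 with second probe sets and 23 to 25 with 1 array left out. VPM against MC at E14.5 gave 4, and 2 as deposited, 1 with no filter, 2 with inferred sex and 1 to 3 with 1 array left out. VPA against MC in E18.5 forebrain gave 2, and 0 as deposited, 0 with no filter, 1 with inferred sex and 0 to 1 with 1 array left out. VPA against VPM there gave 2, and 0 as deposited, 0 with no filter, 1 with second probe sets and 0 to 1 with 1 array left out. Ezh2 has 1 probe set, which the fit with second probe sets used again. As deposited, VPA against MC in E18.5 hippocampus gave 1 member in place of 0, the vehicle difference of E18.5 forebrain and E14.5 20 in place of 31, adult hippocampus over cortex 1 in place of 7, the effect difference of E18.5 forebrain and E14.5 5 in place of 22, and that of E18.5 hippocampus and forebrain 1 in place of 0. MC+RW over MC in adult cortex gave 0 to 1 with 1 array left out. With the replicate block the E14.5 counts were 24 for VPA against MC, 4 for VPM against MC and 29 for VPA against VPM, as without it, and the E18.5 and adult counts also stayed as they were; the numbers were not taken as pairs.

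Reversed on the values as deposited were Kdm1a for VPA against MC in E18.5 hippocampus (0.041), Smyd2 at P84 (-0.057), Ehmt2 in P84 against E18.5 hippocampus (0.024), and, in E18.5 forebrain against E14.5, Ehmt1 (0.019), Kdm1a (0.096), Setd3 (0.094), Setd1a (0.14), Ehmt2 (0.21), Prdm2 (0.18), Prdm8 (0.089), Setdb2 (0.052), Prdm15 (0.069), Kdm3b (0.059), Kdm4a (0.13) and Kmt2b (0.23). Reversed with a second probe set were Nsd3 for VPA against MC in E18.5 hippocampus (-0.049), Prdm2 for VPM against MC in E18.5 forebrain (0.019), Dot1l in adult hippocampus for VPA against MC (0.64) and VPA+RW against VPA (-0.087), Prdm11 for VPA+RW against MC+RW (0.024) and the interaction of Setd5 (0.12) there. In adult cortex these were Prdm2 for VPA against MC (-0.088), Setd5 (-0.0025) and Setd7 (-0.34) for MC+RW against MC, and the interactions of Setd5 (0.088) and Prdm2 (0.12). The others were Kdm2b at P84 (0.061), Suv39h2 in the effect difference (0.11), Setd7 (0.030), Setd3 (0.58) and Kdm6a (-0.17) in E18.5 forebrain against E14.5, Nsd3 (0.39), Prdm11 (-0.67) and Prdm2 (0.27) in adult cortex against E18.5 forebrain, Nsd1 (0.099), Nsd3 (0.57), Prdm11 (-0.26) and Prdm2 (0.28) in P84 against E18.5 hippocampus, and Smyd4 (-0.47) and Nsd1 (-0.17) in adult hippocampus against cortex.

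Groups of 3 or 4 arrays limit what can be called, the litter behind each array is unknown, signals near the floor of 32 understate changes, and 21 of the 60 genes rest on 1 probe set.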

Other observations

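Prdm1 lay below the filter at E14.5 and has no test there. This repressor gene averaged 70.6 ± 9.54 after VPA and 51.6 ± 3.79 after VPM, against 61.5 ± 7.49 after MC (SD, 3 arrays each).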
